A study of Drosophila melanogaster with 6 samples.

Results

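Insulin, TOR and autophagy signalling genes were followed in whole heads of Drosophila melanogaster after 7 days on a high fat diet or a normal diet. The set was defined by name and held 33 genes, of which 27 had a probe set annotated to that gene alone and were measured, out of 11982 genes named on the array. For each gene the probe set with the highest mean stands for the gene, and each of the 27 had only 1 such probe set. Lnk, Pi3K92E, Pi3K21B, Thor, Rheb and Tor were not analysed here. The measured genes fall into 3 of the insulin kinase branch (chico, Pdk1 and Akt), the transcription factor foxo, 9 of the TOR complexes and their regulators, and 14 of autophagy. Signal levels could have entered the choice only between probe sets of 1 gene, which did not arise.

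The high fat group comprised 3 samples of mated w1118 females, a white-eyed laboratory stock, kept on a yeast, sucrose and cornmeal medium to which 20% (w/v) coconut oil was added. The normal diet group comprised 3 samples of the same stock and sex on that medium without the oil. In both groups the females had been mated for 48 hours with isogenic males before the diets began, they had been collected as virgins in their first days of adult life, and the temperature on the diets is given as 23 degrees C with exceptions not specified. Each sample pooled 25 to 50 heads, and its RNA was hybridised to 1 Affymetrix Drosophila Genome 2.0 array. Heads contain brain, eye, muscle, glia and fat body, so fewer cells of a type and less RNA per cell cannot be told apart in these values. The series' design text describes the samples as biological replicates.

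Insulin binding to its receptor recruits the adaptor chico and a lipid kinase, whose product brings Pdk1 and Akt to the membrane, where Pdk1 activates Akt. Active Akt holds the transcription factor foxo out of the nucleus and relieves the block that the Tsc1 and gig complex puts on the TOR kinase. TOR complex 1 drives protein synthesis through S6k and holds back autophagy, the process in which a double membrane encloses cytoplasm for breakdown in the lysosome. Much of this control acts on protein phosphorylation, which an expression array does not measure. Transcript levels of the pathway respond to feeding in part through foxo and through REPTOR, a transcription factor active when TOR complex 1 is low.

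No gene of the set passed the test for a difference between the diets. All 27 measured genes lay above background on all 6 arrays, so each was measured in both diets. By limma, with adjustment over all 18769 probe sets, 0 of 27 had an adjusted p under 0.05, and the smallest adjusted p was 0.651, for Atg7. The same test called 0% of all probe sets. At an unadjusted p under 0.05 there were 0 of 27 genes of the set, against 7.86% of all probe sets and 7.25% of the 10703 above background on every array. The lowest fitted change was -0.33, for raptor, and the highest was 0.20, for S6k. Changes here and below are high fat minus normal diet on the log2 scale.

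The 3 genes whose diets did not overlap, gig, Atg1 and Atg12, all had the higher values on the high fat diet. They make up 11.1% of the set, against 17.7% of all probe sets (8.49% higher on the high fat diet and 9.25% lower) and 22.8% of those above background on every array (11.5% higher and 11.3% lower). The share in the set is below both of these. Atg12, the ubiquitin-like protein that is joined to Atg5, measured 956, 991 and 896 signal units on the high fat arrays and 877, 823 and 829 on the normal diet arrays. Each high fat value of Atg12 exceeded each normal diet value, with a change of 0.17 (SE 0.11, limma adjusted p = 0.655). Atg1, the kinase that starts autophagosome formation, measured 2277, 2355 and 2319 units on the high fat diet and 2051, 2241 and 2116 units on the normal diet. Its arrays were likewise separated, by a narrow gap, and the change was 0.12 (SE 0.11, limma adjusted p = 0.723). The gene gig encodes Tsc2, the partner of Tsc1 in the complex that restrains TOR. It had 610.4, 731 and 615 units on the high fat diet and 597, 595 and 592 units on the normal diet (change 0.13, SE 0.12, limma adjusted p = 0.748). Only high fat diet replicate 2 lay well above the rest in gig, and without that array the change was 0.04.

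**Figure D1:**
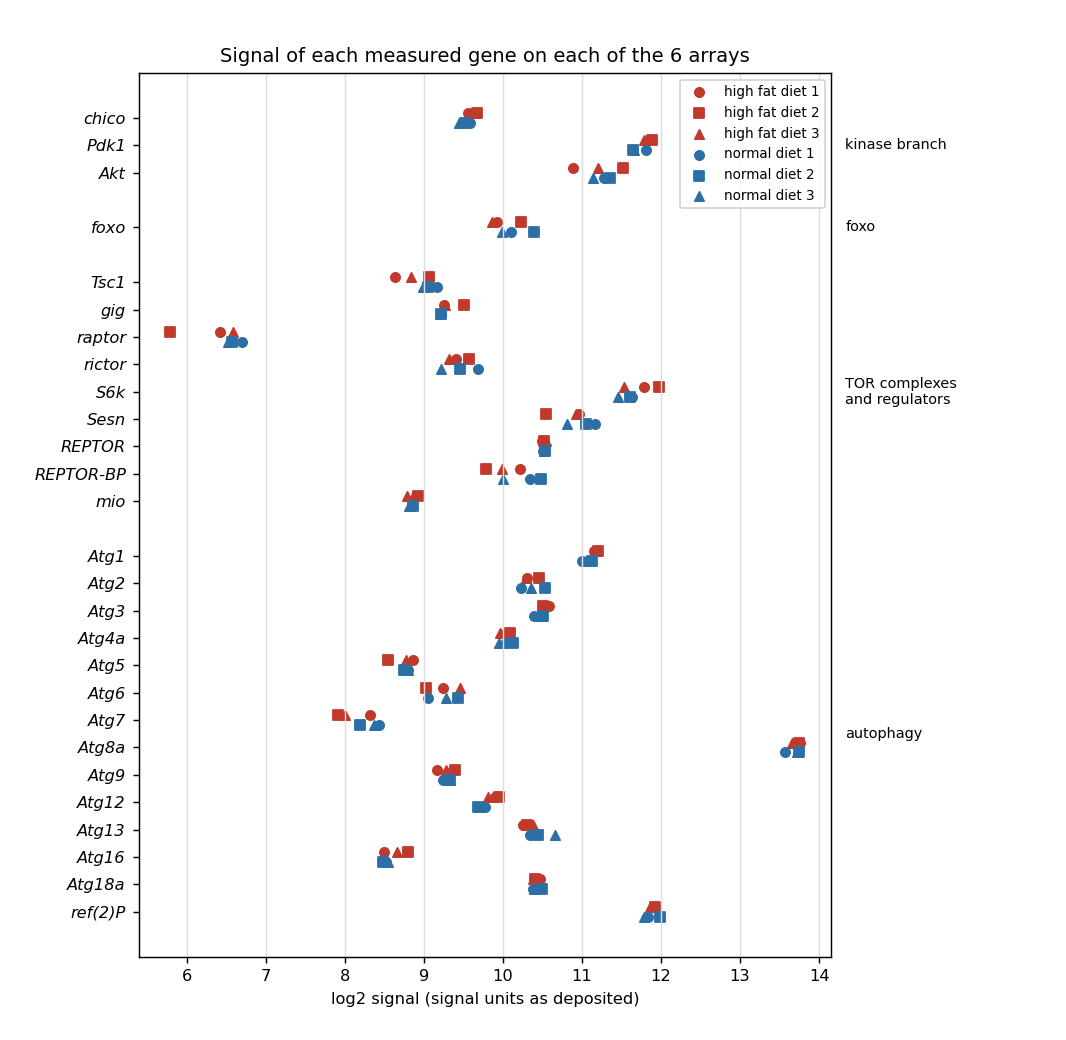
Log2 signal of the 27 measured genes (rows, by role) on each array, with high fat arrays in red and normal diet arrays in blue, and a marker shape for each replicate number. In 24 of the 27 genes the diets overlap, and levels of different rows come from different probe sets and are not comparable.

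In the kinase branch the diets overlapped in all 3 genes. Pdk1, the kinase that activates Akt and S6k, measured 3701, 3799 and 3537 units on the high fat diet and 3583, 3198 and 3225 units on the normal diet. The highest normal diet value lay between high fat values, and the change was 0.14 (SE 0.11, limma adjusted p = 0.698). For chico, the insulin receptor substrate, the values were 757, 814 and 799 units on the high fat diet and 766, 735 and 699 units on the normal diet. The diets overlapped in chico by 1 array (change 0.11, SE 0.11, limma adjusted p = 0.756). Akt, the central kinase of the pathway, was the least even of these genes, at 1888, 2935 and 2365 units on the high fat diet and 2489.5, 2625 and 2252 units on the normal diet. Its high fat arrays spanned the normal diet arrays on both sides, with 1.55 times as much signal on the highest as on the lowest, so its change of -0.06 has a wide 95% interval of -0.56 to 0.44.

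The transcription factor foxo differed by less than its spread. It measured 968, 1196 and 927 units on the high fat diet and 1101, 1348 and 1015 units on the normal diet. In both diets replicate 2 was the highest of its group, and the diets overlapped. The change was -0.16 (SE 0.18, 95% interval -0.61 to 0.28, limma adjusted p = 0.769), and it ranged from -0.27 without high fat diet replicate 2 to -0.05 without normal diet replicate 2. Genes known as foxo targets were read from a separate list of 8 names, of which 6 were measured. On the high fat diet 5 averaged higher and 1 lower, with 0 past the threshold in either direction. Over all probe sets 45.7% averaged higher. The median change of the targets was 0.22, against -0.03 over all probe sets. It rests in part on upd2, which was below background on all 6 arrays. A median of this size was not particular to foxo targets, as those of the head tissue marker lists ran from 0.03 for fat body to 0.27 for photoreceptor. Pepck1, an enzyme of gluconeogenesis, measured 16057, 15310.2 and 17423 units on the high fat diet and 12298, 14379 and 14420.0 units on the normal diet. The diets did not overlap in Pepck1 (change 0.25, SE 0.13, limma adjusted p = 0.617). It was the only 1 of the 6 without overlap (16.7%, against 17.7% of all probe sets and 22.8% of those above background). The triglyceride lipase bmm (-0.25, SE 0.15) and the acid lipase Lip4 (0.24, SE 0.14) had changes of opposite sign, with overlapping arrays in both. The insulin receptor gene InR, a classical foxo target that rises on starvation, measured 1348, 1334 and 1338 units on the high fat diet and 1279, 1397 and 1136 units on the normal diet (change 0.08, SE 0.12).

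Of the genes that act on or within the TOR complexes, 4 had their higher mean on the high fat diet and 5 on the normal diet, with a median change of -0.02. Tsc1, the partner of gig, measured 399, 536 and 458 units on the high fat diet and 576, 533 and 507 units on the normal diet. One high fat array, replicate 2, lay within the normal diet range of Tsc1, and the change was -0.22 (SE 0.15, limma adjusted p = 0.669). It was -0.12 once high fat diet replicate 1 was left out. REPTOR-BP, the partner through which REPTOR acts, had 1191, 883 and 1018 units on the high fat diet and 1299, 1424 and 1020.5 units on the normal diet (change -0.27, SE 0.19, limma adjusted p = 0.673). Normal diet replicate 3 of REPTOR-BP lay within the high fat range, so the diets overlapped, and the change was -0.17 without high fat diet replicate 2 or without normal diet replicate 2. REPTOR itself had 1449, 1464 and 1494 units on the high fat diet and 1452, 1487 and 1466 units on the normal diet. REPTOR was the most even gene of the set, its highest array at 1.03 times its lowest, with a change of 0.00049 (SE 0.10).

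The TOR complex subunits raptor and rictor overlapped between the diets. Lst8, read from the further list of TOR genes, did not. It measured 570, 573 and 585 units on the high fat diet and 665, 587 and 635 units on the normal diet (change -0.13, SE 0.11, limma adjusted p = 0.718). The TOR complex 1 subunit raptor measured 85.6, 55.4 and 95.9 units on the high fat diet and 104, 95.4 and 91.6 units on the normal diet. Its change of -0.33 (SE 0.24) rests on high fat diet replicate 2, without which it was -0.10. The TOR complex 2 subunit rictor lay between 639.8 and 761 units on the high fat diet and between 593 and 821 units on the normal diet, with a change of -0.02 (SE 0.17). S6k, the kinase that carries the growth signal of TOR complex 1, measured 3536, 4034 and 2966 units on the high fat diet and 3186, 3107 and 2805 units on the normal diet. High fat diet replicate 3 of S6k lay below 2 of the normal diet arrays (change 0.20, SE 0.16, limma adjusted p = 0.697). Without high fat diet replicate 2 the change of S6k was 0.10, and without replicate 3 it was 0.32. Sesn, a stress-induced inhibitor of TOR complex 1, had a change of -0.19 (SE 0.18), which was -0.06 without high fat diet replicate 2 and -0.12 without normal diet replicate 1. The gene mio, a subunit of the GATOR2 complex that relays amino acid supply, had a change of 0.03 (SE 0.11).

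Of the 4 roles, autophagy had the smallest median size of change. Of 14 genes, 6 had their higher mean on the high fat diet and 8 on the normal diet, the median change was -0.0067 and the median size of change was 0.05. Atg7, the enzyme that activates both Atg8a and Atg12 for conjugation, had the smallest p of the whole set. It measured 319.7, 240.3 and 257 units on the high fat diet and 347, 292 and 329.95 units on the normal diet. The first high fat array of Atg7 exceeded the second normal diet array, so the diets overlapped, and the change was -0.25 (SE 0.16, 95% interval -0.66 to 0.15). Atg7 was also the only gene of the set in which normal diet replicates 1 and 3 were the highest 2 of the 6 arrays.

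The other conjugation genes had changes of either sign, each smaller in size than that of Atg7. Atg3, which passes Atg8a to lipid, had a change of 0.07, Atg16, the scaffold of the Atg5 and Atg12 conjugate, 0.14 (0.06 without high fat diet replicate 2), Atg5 itself -0.05, and the protease Atg4a -0.0088. Atg8a, the ubiquitin-like protein that coats autophagosomes, measured 13845, 13758 and 12938 units on the high fat diet and 12112, 13756 and 13475 units on the normal diet. High fat diet replicates 1 and 2 lay at or just above the highest normal diet array of Atg8a, replicate 3 lay among the normal diet arrays, and the change was 0.04 (SE 0.11, 95% interval -0.25 to 0.34). ref(2)P, the receptor that carries ubiquitinated cargo into autophagosomes, measured 3914, 3883 and 3709.8 units on the high fat diet and 3643, 4046 and 3519.6 units on the normal diet. Its change was 0.04 (SE 0.11, 95% interval -0.25 to 0.33), with 2 of the normal diet arrays below every high fat array and the other above them all. ref(2)P protein builds up when autophagy is blocked, but these values are of its transcript.

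Upstream in autophagy, Atg13, the regulatory partner of Atg1, had a change of -0.17 (SE 0.13), opposite in sign to Atg1, and of -0.08 without normal diet replicate 3. Atg6, a core subunit of the lipid kinase complex that marks the forming membrane, spanned 521 to 705 units on the high fat diet and 533 to 688 units on the normal diet, with a change of -0.01. The membrane supply genes Atg2, which transfers lipid, Atg9, which spans the membrane, and Atg18a, which binds the lipid mark, had changes of -0.01, -0.02 and -0.0045. In these 3 genes the difference between diets was under the SD of either diet.

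**Figure D2:**
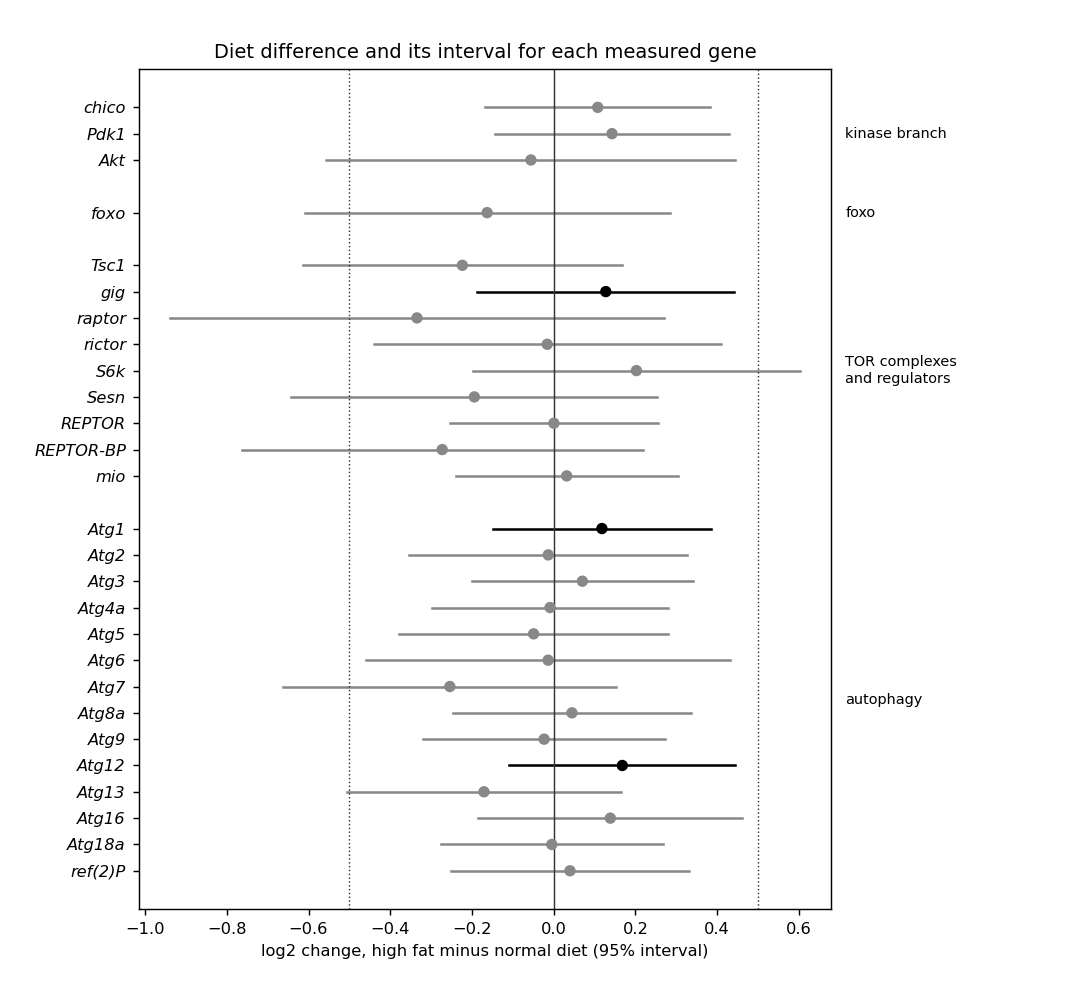
Log2 change, high fat minus normal diet, with its 95% interval from the limma fit, for each measured gene by role; black marks gig, Atg1 and Atg12, in which the diets do not overlap, and dotted lines stand at -0.5 and 0.5. All 27 intervals include 0, and 18 lie between the dotted lines on the deposited scaling.

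As deposited, all 27 of the 95% intervals included 0, and 18 of 27 lay within 0.5 log2 of it on both sides, a ratio of 1.41 either way. The same held for 35.3% of probe sets above background, a share that reflects both the precision and the size of their changes. The intervals of Akt, foxo, Tsc1, raptor, S6k, Sesn, REPTOR-BP, Atg7 and Atg13 crossed one of these limits, and that of raptor was the widest, at -0.94 to 0.27. The count of 18 holds for the deposited scaling: it was 1 of 27 with arrays centred on their medians, 16 with quantile normalization, and 9 to 17 when each array was left out in turn. All 27 intervals included 0 in these settings too, but 25 did with values under 16 set to 16. That floor left the change of every gene of the set as it was, so only the widths of the intervals differed. The median size of change was 0.11 in the set and 0.17 in the probe sets above background, and the median SD within a diet was 0.11 and 0.17. The genes of the set are also brighter, at a median of 1083 signal units against 436, and the part of brightness in these figures was not tested.

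**Figure D3:**
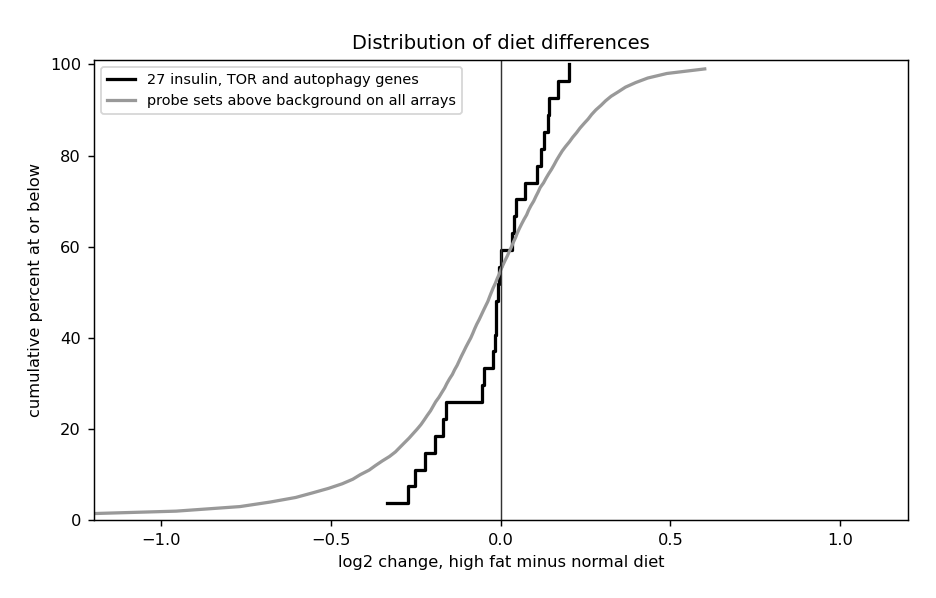
Cumulative percent of genes at or below each log2 change, for the 27 insulin, TOR and autophagy genes (black) and for the 10703 probe sets above background on all arrays (grey). The black curve spans -0.33 to 0.20 and is steeper around 0, with a median of -0.0088 against -0.03 for the grey one.

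The deposited scaling fixes the sign of such small changes only within its own convention. With arrays centred on their medians instead, the median change over all probe sets was 0.23, against -0.03 as deposited, and that of the set was 0.26, against -0.0088. That centring adds the same amount to every gene. Under that centring 25 of the 27 genes averaged higher on the high fat diet, against 12 as deposited, and 0 had an adjusted p under 0.05 by limma. In 3 other settings limma called some probe sets, 0.139% with trend and robust moderation, 0.0511% with dim probe sets left out and 0.89% without normal diet replicate 2, but 0 of 27 genes of the set in each. Without normal diet replicate 2 the median change of the set was 0.03 and that of autophagy 0.07, and without normal diet replicate 3 the median of the TOR genes was -0.14. The kinase branch median of 0.11 ranged from 0.07 to 0.14 when each array was left out in turn.

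High fat diet replicate 2 stood apart in this set. It gave the highest or the lowest of the 6 values in 16 of 27 genes (59.3%), against 44.4% of the probe sets above background. Among those probe sets normal diet replicate 3 was extreme more often (50.0%), but in the set it was so in 7 genes (25.9%). High fat diet replicate 2 was the highest array in 10 genes, among them Akt, S6k and gig, and the lowest in 6, which were raptor, Sesn, REPTOR-BP, Atg5, Atg6 and Atg7. Signal at the 3' end of actin Act5C relative to its 5' end, which increases as RNA breaks down, was 20.4 on this array, against 11.4 and 13.2 on the other high fat arrays and 10.5 to 12.4 on the normal diet arrays. For GAPDH the gap was smaller, at 2.42 on this array, against 2.20 and 1.97 on the other high fat arrays and 1.84 to 2.02 on the normal diet arrays. The part of RNA integrity in these values was not tested. Without this array 0 of 27 genes had an adjusted p under 0.05, and the smallest adjusted p was 0.766.

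**Figure D4:**
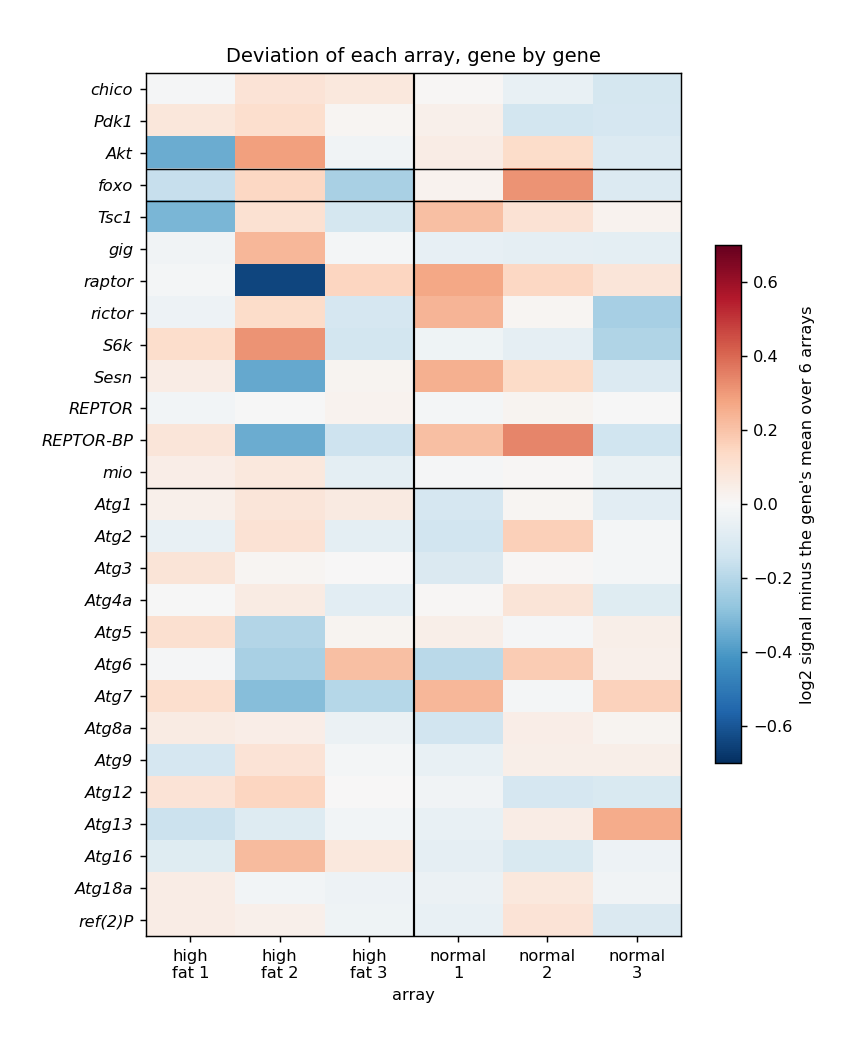
Log2 signal of each gene (rows, by role) on each array minus the gene's mean over the 6 arrays, from blue (below the mean) to red (above it). The column of high fat diet replicate 2 holds the deepest blue, in raptor, and strong colours in Sesn and REPTOR-BP (blue) and in S6k and Akt (red).

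Ovary and germ line markers differed widely between the arrays, with a top pair of arrays that only 1 of the insulin, TOR and autophagy genes shared. Of 24 measured markers, 22 averaged lower on the high fat diet, with a median change of -2.77 and 0 past the threshold. Their summed signal was 9089 to 9637 units on the high fat arrays, and 30069, 10881 and 36922 units on normal diet replicates 1, 2 and 3. Much of the sum on the high fat arrays and on normal diet replicate 2 came from gus and tud, with changes of -0.16 and 0.23. In 15 markers (62.5%, against 9.25% of all probe sets) every high fat array lay below every normal diet array, replicate 2 included, and in 1 above. For example, osk measured 13.6, 16.2 and 19.5 units on the high fat diet and 1664, 416 and 2124 on the normal diet. On the high fat diet 5 of the markers were below background on every array, namely yl, nanos, bcd, plu and vas, and vas was below it on every normal diet array as well. Normal diet replicates 1 and 3 were the highest arrays in 21 of the 24 markers (87.5%) and in 22.2% of the probe sets above background, but in 1 of 27 genes of the set (3.70%). The median gene of the set on normal diet replicates 1, 2 and 3 differed from its high fat mean by -0.04, 0.06 and -0.02. Markers of resident head tissues had median changes of 0.27 for neuron, 0.27 for photoreceptor, 0.25 for muscle, 0.20 for hemocyte, 0.16 for glia and 0.03 for fat body. Of these head markers only the fat body gene Fbp1 lay below background on any array.

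**Figure D5:**
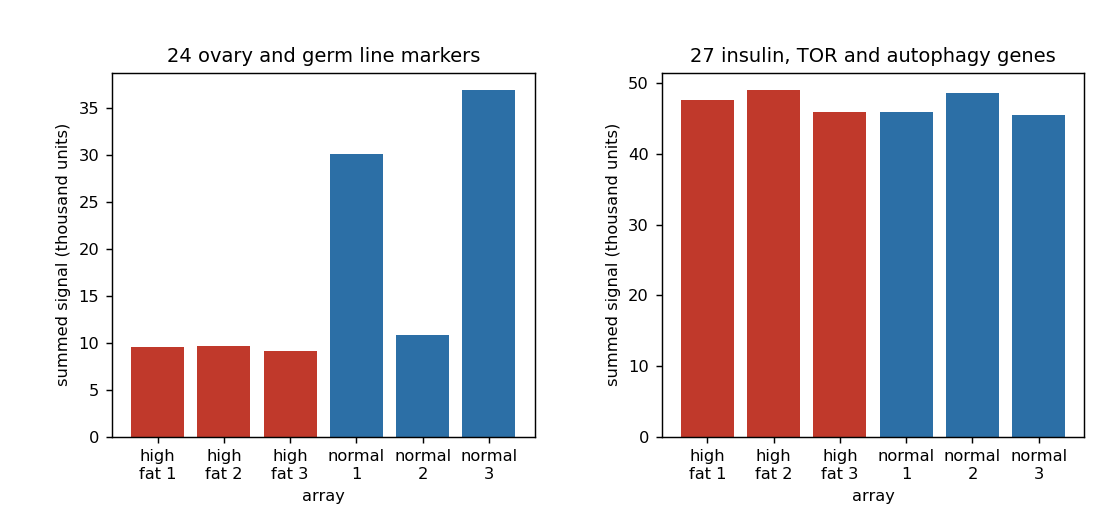
Summed signal on each array for the 24 measured ovary and germ line markers (left) and for the 27 insulin, TOR and autophagy genes (right), with high fat arrays in red and normal diet arrays in blue. The marker sum is 9089 to 9637 units on the high fat diet and 10881 to 36922 on the normal diet, and gus and tud make up much of its lower values. The sum of the signalling genes is 45958 to 49014 on the high fat diet and 45556 to 48597 on the normal diet, and Atg8a makes up a large part of it.

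The rest of the pathway was read from 3 further lists, in which 0 genes had an adjusted p under 0.05 by limma in either direction. Among 8 measured genes around the insulin receptor, 6 had their higher mean on the high fat diet and 2 on the normal diet, with a median change of 0.03. The one with the smallest p was wdb, a regulatory subunit of the phosphatase PP2A that acts on Akt, at 506, 453 and 372 units on the high fat diet and 561, 529 and 614 units on the normal diet. The diets did not overlap in wdb (change -0.36, SE 0.16, limma adjusted p = 0.610), and its dimmer second probe set had a change of -0.68 (SE 0.33). It was the only 1 of the 8 without overlap (12.5%, against 17.7% of all probe sets and 22.8% of those above background). The next by p were 14-3-3zeta, a phosphoprotein-binding adaptor (0.25, SE 0.22), and AMPKalpha, the energy-sensing kinase (-0.11, SE 0.11).

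Among 26 other genes of TOR and amino acid sensing, 9 had their higher mean on the high fat diet and 17 on the normal diet, the median change was -0.07, and the diets did not overlap in 6 (23.1%), a share near the 22.8% of all probe sets above background. Of these, 5 were lower on the high fat diet (19.2%, against 11.3% of probe sets above background), namely Lst8, Nprl3, Nup44A, alc and SNF4Agamma. The 1 that was higher was unk. Nprl3, a subunit of GATOR1, the complex that restrains TOR complex 1 when amino acids are scarce, measured 345, 371 and 312 units on the high fat diet and 493, 416 and 493 units on the normal diet. Every high fat array of Nprl3 was below every normal diet array, with a change of -0.45 (SE 0.14, 95% interval -0.80 to -0.10, limma adjusted p = 0.610). Of the other GATOR1 subunits, Nprl2 had a change of -0.21 (SE 0.13) and Iml1 of 0.19 (SE 0.19). The 5 measured GATOR2 subunits had changes between -0.28, in Sec13, and 0.03, in mio. The AMPK subunit alc measured 33.1, 30.1 and 30.0 units on the high fat diet and 35.9, 36.7 and 39.9 units on the normal diet, without overlap (change -0.27, SE 0.12). The RNA-binding protein gene unk had a change of 0.32 (SE 0.13). In unk all high fat arrays exceeded all normal diet arrays, at 2233, 2649 and 2321 against 1948, 2067 and 1762 units, but its second, dimmer probe set had a change of -0.33 (SE 0.28), so the gene's direction depends on the probe set.

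Among 25 other genes of autophagy and the lysosome, 16 had their higher mean on the high fat diet and 9 on the normal diet, and the median change was 0.02. The diets did not overlap in 2 of them (8.0%), Rubicon and Atg14, against 17.7% of all probe sets and 22.8% of those above background. Rubicon, which in mammals restrains autophagosome maturation, measured 352, 277 and 321 units on the high fat diet and 469.7, 388.5 and 504 units on the normal diet. Its diets did not overlap, with a change of -0.52 (SE 0.17, 95% interval -0.94 to -0.10, limma adjusted p = 0.610). Atg14, the subunit that directs the lipid kinase complex to autophagosome formation, measured 840.1, 742 and 853 units on the high fat diet and 939, 1045 and 987 units on the normal diet. Its values were also separate by diet (change -0.29, SE 0.12, limma adjusted p = 0.610). The lysosomal transporter spin was next by p (0.21, SE 0.16), with overlapping diets.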

How the data were processed

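Per the submitters' processing notes, Affymetrix Expression Console produced the values. The sources used here give neither its version, nor a summarisation method, nor a genome build. The deposited values are linear signal intensities, 1 column per array, with 0 columns left unused. The mean of each array without its top and bottom tails was the same, 499.6 to 499.7 units, the mark of 1 scaling factor per array. Values under 1 were set to 1 and log2 was taken; no value of the 27 measured genes of the set was affected. After 183 control probe sets were left out, 18769 entered a limma fit without covariates (version 3.58.1, R 4.3.3) and p-values were adjusted by Benjamini-Hochberg, with a threshold of 0.05. Of these, 13647 had 1 gene symbol, 402 several and 4720 none; genes were named from the first kind only. A probe set was above background where it exceeded 95% of the 50 control probe sets whose names hold a protein accession, taken here to be foreign to the fly, a level of 15.2 to 21.8 units, and 65.3% to 70.0% of probe sets per array lay above it. Precision is limited by having only 3 arrays in each diet. The share of identical values between any pair of arrays was at most 0.0053%, so none was taken for a copy. The fit was tested on simulated data.

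The genes, lists and tests were chosen with earlier results of these data known. By the naming rule, per-array values are given for genes whose diets do not overlap and for the 2 of each role with the smallest p. Each further list gives its 3 smallest p. Akt, S6k, REPTOR, raptor, Atg8a, ref(2)P, InR, Lst8, SNF4Agamma and the other GATOR subunits were added after their values were seen. The probe sets of 4 genes of the set (Pdk1, Akt, REPTOR and Atg18a) are of the type that may share probes with other transcripts. Outside the set, those of slif, wdb, 14-3-3zeta, AMPKalpha, SNF4Agamma, Nup44A, spin and the marker gus are of this type too. The planned search of promoters was not run.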

Additional observations from a re-analysis of the deposited data

How the results depend on the processing

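No array left out and no alternative gave a gene of the set with an adjusted p under 0.05 (0 of 27 each time), while limma called 26 of all probe sets with trend and robust moderation, 6 without the dim ones and 167 without normal diet replicate 2, against 0 as first fitted, where 1475 had an unadjusted p under 0.05. Signs of changes near 0 turned. With quantile normalization Atg4a was at 0.022, Atg5 at 0.055, Atg6 at 0.056, Atg8a at -0.0049, Atg9 at 0.042, REPTOR at -0.016, ref(2)P at -0.00039 and rictor at 0.037, and 5 genes did not overlap. With median centring 6 did not overlap, the medians were 0.26 for the set, 0.38 for the kinase branch, 0.25 for TOR and 0.26 for autophagy, and Akt was at 0.21, Atg13 at 0.10, Atg18a at 0.26, Atg2 at 0.26, Atg4a at 0.26, Atg5 at 0.22, Atg6 at 0.26, Atg7 at 0.015, Atg9 at 0.25, Sesn at 0.075, Tsc1 at 0.045, foxo at 0.11, rictor at 0.25, AMPKalpha at 0.16 and bmm at 0.014. The mean of all probe sets put unk at -0.0086. Leaving out 1 array gave 5 to 10 genes without overlap, a count that fewer arrays can only keep or raise. No share over all probe sets was taken for the counts without overlap in these settings or under the other normalizations. They are therefore not read as a result about the set. Medians without 1 array were -0.011 to 0.034 for the set and 0.073 to 0.14 for the kinase branch. For TOR they were -0.14 to -0.0032, and for autophagy -0.019 to 0.069. The ranges were -0.21 to 0.10 for Akt, -0.085 to 0.067 for Atg2, -0.055 to 0.034 for Atg4a, -0.12 to 0.041 for Atg5, -0.12 to 0.10 for Atg6, -0.011 to 0.080 for Atg8a, -0.078 to 0.031 for Atg9, -0.031 to 0.032 for Atg18a, -0.012 to 0.010 for REPTOR, -0.0019 to 0.10 for ref(2)P and -0.14 to 0.10 for rictor, and, with no turn of sign, 0.08 to 0.43 for 14-3-3zeta, 0.13 to 0.32 for Lip4, 0.12 to 0.32 for spin and -0.15 to -0.07 for AMPKalpha. A further setting, chosen after seeing the data, left out both normal diet replicates 1 and 3. The 1 remaining normal diet array was assumed to vary like the others. In that setting the medians were -0.055 for the set and -0.066 for autophagy. Atg8a was then at -0.026, REPTOR at -0.018, ref(2)P at -0.078 and spin at -0.00060. The replicate block called 0 genes of the set (smallest limma adjusted p = 0.680) and left every change as it was. Correlations of deviations between arrays of the same number were -0.07, 1.8e-04 and 0.03, and those of different number ranged from -0.10 to 0.11. They show no pairing by number but cannot exclude one, as the deviations were taken from the mean of 3 arrays in each diet. For the other turned signs the cause was not tested.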

Other observations

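Some genes of amino acid sensing outside the signalling set had normal diet replicates 1 and 3 as their highest 2 arrays, and were chosen after their values were seen. That order was found in 22.2% of probe sets above background and in 87.5% of the germ line markers. Its share among all amino acid sensing genes was not taken, so the genes below do not describe their list. slif, an amino acid transporter, measured 197, 202 and 258 units on the high fat diet and 517, 208 and 807 units on the normal diet. The germ line marker osk was at 13.6, 16.2 and 19.5 units on the high fat diet and 1664, 416 and 2124 units on the normal diet. The change of slif was -1.03 (SE 0.52, limma adjusted p = 0.616). On normal diet replicate 2 slif lay within its high fat range, while osk lay above all its high fat values. Sin1, a subunit of TOR complex 2, measured 189, 87.6 and 147 units on the high fat diet and 242, 172 and 230.4 units on the normal diet (change -0.66, SE 0.33, limma adjusted p = 0.614). The GATOR2 subunit Sec13, which also serves the nuclear pore and the secretory coat, measured 545, 459 and 617 units on the high fat diet and 631, 577 and 766 units on the normal diet. In Nprl3 and Rubicon, too, normal diet replicate 2 was the lowest of its diet, but it stayed above every high fat array. The part of germ line RNA in these values was not tested.

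The 4 measured Ragulator genes, which anchor the TOR complex 1 machinery to the lysosome, had changes between -0.03 and 0.09. The 4 measured genes of the vacuolar fusion complex, known for eye pigment granules and lysosome delivery, had changes between -0.00073 and 0.15. The diets overlapped in each of them.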
